A study of Arabidopsis thaliana with 8 samples.

Results

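Small secreted peptide genes of Arabidopsis thaliana were followed in developing seeds, comparing the ttg1 mutant with wild-type Landsberg erecta (Ler). Members were all probe sets with a single gene in the platform annotation whose symbol begins with RALF, or with LCR, SCRL, CLE or PDF and a digit, or with GASA or EPFL, together with the locus AT2G14900. The rule found 33 genes, 1 probe set each, among 22746 probe sets tested, of which 13513 name a single gene. They comprised 11 RALF genes, 13 genes of defensin-like cysteine-rich proteins, 6 CLE genes and AT2G14900, which is of the gibberellin-regulated (GASA) type. The other 2 genes, PDF1A and PDF1B, encode peptide deformylases, enzymes that act on the first residue of proteins made in organelles. They share only the letters of the symbol with the plant defensins and are described apart, which leaves 31 secreted peptide genes. No probe set carried a symbol beginning with SCRL, GASA or EPFL.

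Seeds with embryos at globular up to walking-stick stages were taken out of the siliques, and total RNA was hybridised to Affymetrix ATH1 arrays. Each genotype had 4 arrays, labelled as biological replicates, and how the plants were grown is not given in the sources used here. The ttg1 line is labelled only as the ttg1 mutant, with no allele named. The source names end in numbers from 6 to 9 for replicates 1 to 4, in the same order in both genotypes. The meaning of these numbers is not given in the labels, so same-numbered arrays may or may not be pairs. Ler carries the erecta mutation of the ERECTA receptor kinase, which is a receptor of EPFL peptides. The genetic background of the ttg1 line is not given in the labels, and no probe set was named TTG1, so the mutant could not be checked by that gene.

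TTG1 is a WD40-repeat protein that joins MYB and bHLH transcription factors in complexes. These complexes control trichomes, root hair pattern, and the pigment and mucilage of the seed coat. Plant peptides of the families studied here are made as precursors with a secretion signal and act in the cell wall or at the plasma membrane. RALF peptides bind receptor kinases of the FERONIA type and cell wall proteins of the LRX type, and affect wall pH and growth. CLE peptides are short hormones cut from the end of their precursor, which bind leucine-rich repeat receptor kinases and adjust stem cell and vascular growth. Plant defensins and their relatives are compact proteins held by disulphide bridges. Many defensins are antimicrobial, and some relatives act between pollen and pistil. GASA proteins are cysteine-rich as well, and several respond to gibberellin.

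Deposited values are on a log2 scale and are given relative to the median of each probe set over the 8 arrays. They compare arrays with each other and carry no level. A gene near 0 on every array may be silent or steadily expressed, and one probe set cannot be set against another in level. For the same reason it could not be checked which tissue markers were detected. Each log2 change is the mean of ttg1 minus the mean of Ler. It was tested with limma over all probe sets at a Benjamini-Hochberg adjusted p under 0.05. A whole-seed sample cannot tell fewer cells of a type from less RNA per cell.

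Of the 33 genes, 3 fell in ttg1 and none rose: AT2G14900, RALFL28 and RALFL31. AT2G14900 was added by its locus, with earlier results of these data known, so its fall carries no weight in a count of members. RALFL28 and RALFL31 were the only called genes found by symbol. The counts below include AT2G14900. Over all probe sets tested, 5.72% were called, with 3.96% lower and 1.76% higher in ttg1, and no test set the members' count apart from these shares. Among the 31 secreted peptide genes the median log2 change was -0.01, beside 0.03 over all probe sets. The values of the 2 groups did not overlap for 5 members, AT2G14900, RALFL28, RALFL31, LCR80 and CLE40, against 14.8% of all probe sets. In the first 4 of these the ttg1 arrays were lower (8.33% of all probe sets), and in CLE40 they were higher (6.51%). At an unadjusted p under 0.05 there were 10 members, and 23.0% of all probe sets. Among the 30 members that were not called, the 95% interval of the change lay within 2-fold either way for all but LCR24.

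**Figure D1:**
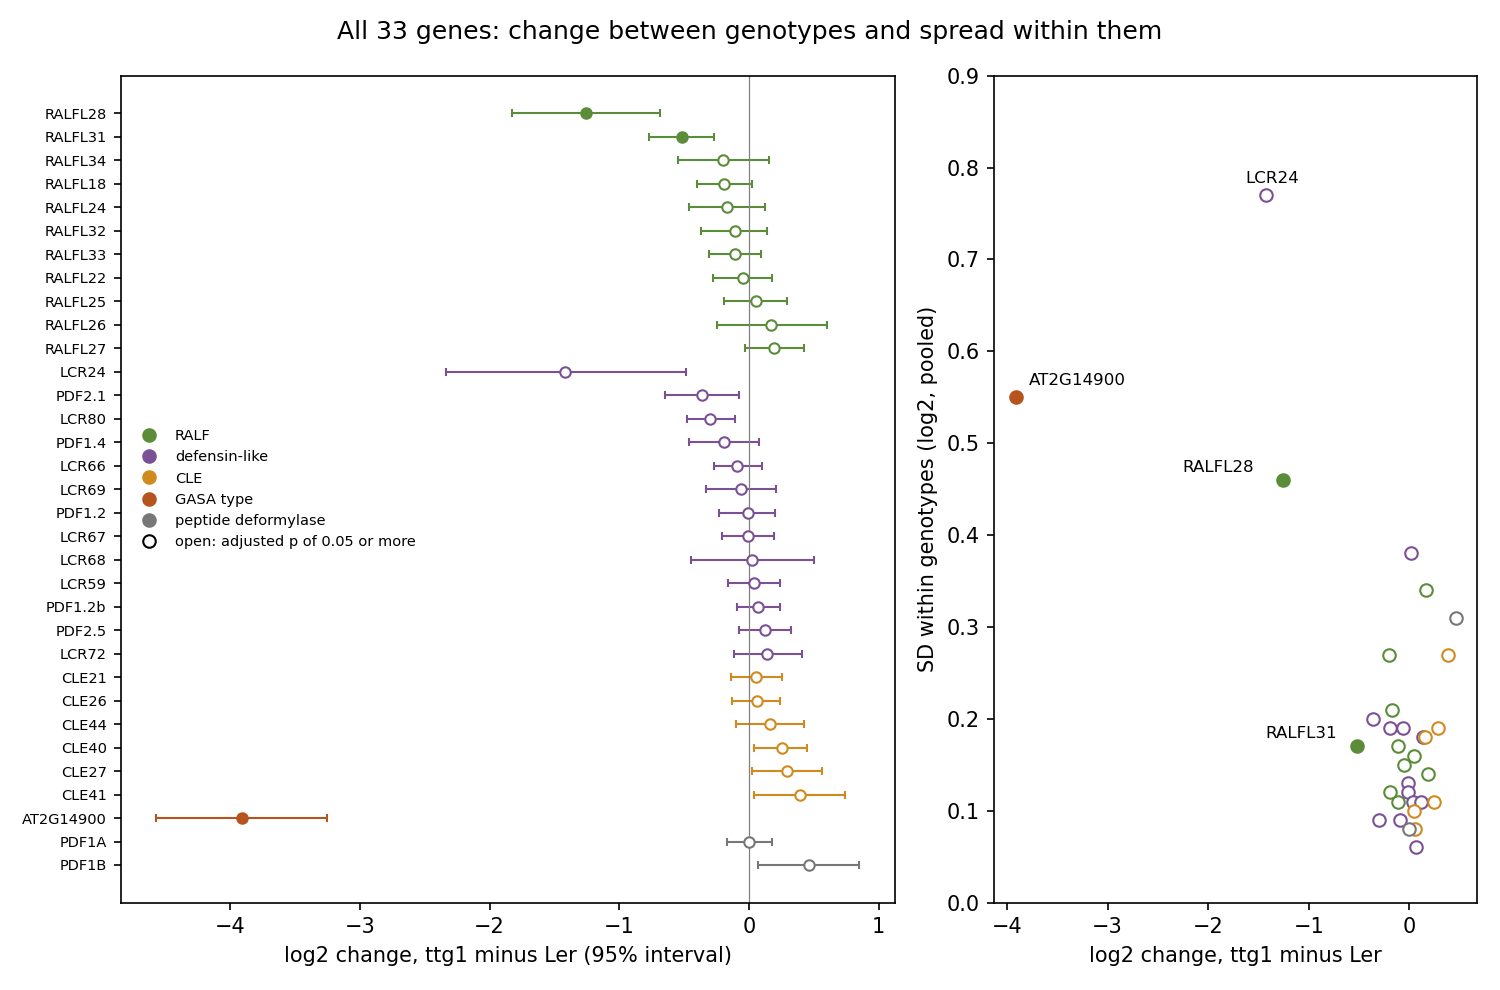
Left, the log2 change of each of the 33 genes, ttg1 minus Ler, with its 95% interval, coloured by family and filled where the adjusted p in limma was under 0.05. Right, the same change against the SD within genotypes (log2, pooled over both); AT2G14900 at -3.91 stands far from the rest, and LCR24 has the largest SD, 0.77.

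The widest change was that of AT2G14900, on chromosome 2, which was 15-fold lower in ttg1 seeds. Its values were -2.55, -2.26, -1.32 and -3.01 in ttg1 replicates 1 to 4, against 1.32, 1.48, 1.97 and 1.74 in Ler replicates 1 to 4. The lowest Ler array stood well above the highest ttg1 array, and the groups did not overlap. Means were -2.28 ± 0.72 for ttg1 arrays and 1.63 ± 0.29 for Ler arrays (SD, n = 4 each). The log2 change was -3.91 ± 0.30 (SE; 95% interval -4.57 to -3.25, adjusted p in limma 1.76e-05). The change ranked 20 among the falls of all 22746 probe sets. The gene passed the test under all 19 alternatives tried, with log2 changes between -4.23 and -2.98. The upper end of that range came from quantile normalization of the centred values.

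RALFL28 (AT4G11510) was the RALF gene with the widest change, 2.4-fold lower in ttg1. Its values were -1.31, -0.92, -0.12 and -1.53 in ttg1 replicates 1 to 4, against 0.61, 0.27, 0.12 and 0.17 in Ler replicates 1 to 4. All ttg1 arrays lay below all Ler arrays, but ttg1 replicate 3 lay close to the lowest Ler array. The log2 change was -1.26 ± 0.26 (95% interval -1.83 to -0.69, adjusted p in limma 0.0174) and ranked 183 among the falls of all probe sets. The call was lost without ttg1 replicate 1 (log2 change -1.15, adjusted p in limma 0.0512), without Ler replicate 1 (-1.16, 0.0572) and without Ler replicate 2 (-1.27, 0.0559). Without ttg1 replicate 3 the log2 change was -1.54 (adjusted p 0.00048).

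RALFL31 (AT4G13950) was 1.43-fold lower. Values of -0.21, -0.15, -0.13 and -0.51 in ttg1 replicates 1 to 4 stood against 0.17, 0.13, 0.49 and 0.29 in Ler replicates 1 to 4, without overlap. The log2 change was -0.52 ± 0.11 (95% interval -0.77 to -0.27, adjusted p in limma 0.0237). The call was lost without Ler replicate 3 (log2 change -0.45, adjusted p in limma 0.0733) and without Ler replicate 4 (-0.51, 0.0535). It passed in 6 of the 8 fits that each left out 1 array, and RALFL28 in 5 of 8.

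**Figure D2:**
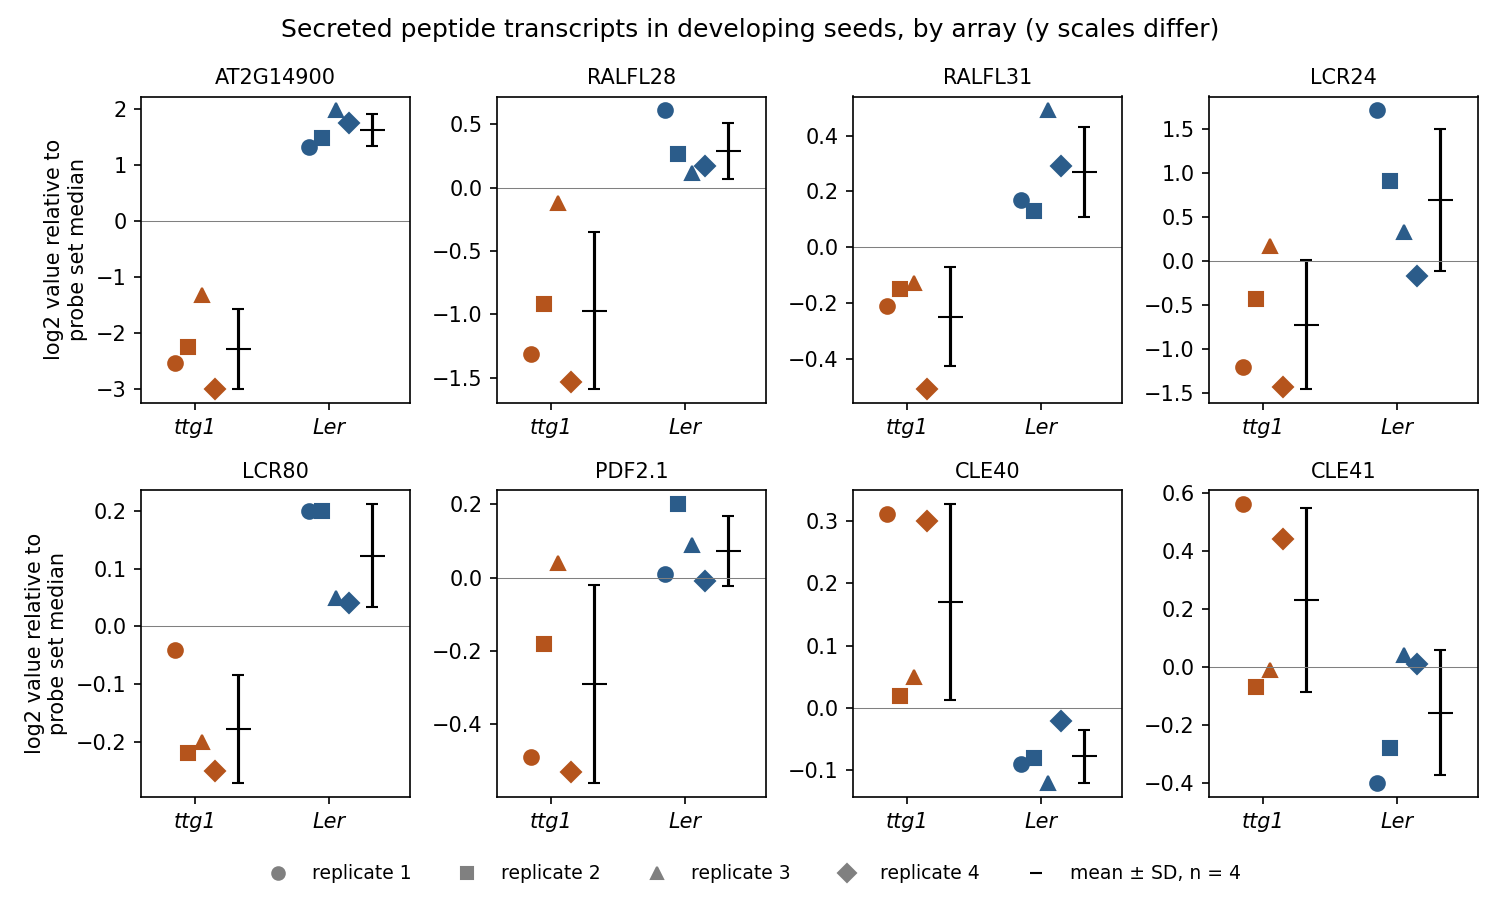
Log2 values relative to the probe set median in each array for 8 genes, with ttg1 (brown) left of Ler (blue), a marker shape for each replicate, and the mean ± SD beside the points; the y scales differ. The groups do not overlap in AT2G14900, RALFL28, RALFL31, LCR80 and CLE40, and overlap in LCR24, PDF2.1 and CLE41.

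The other 9 RALF genes did not pass the test, and their log2 changes ran from -0.20 in RALFL34 to 0.19 in RALFL27. Over all 11 the median was -0.11, with 8 changes below 0 and 3 above. Of all 22746 probe sets, 10100 had a change below 0 and 12646 above. RALFL34 (AT5G67070) encodes a peptide known as a ligand of the receptor kinase THESEUS1 in Arabidopsis roots. Its values were -0.46, -0.07, -0.36 and 0.35 in ttg1 replicates 1 to 4, against 0.08, -0.04, 0.18 and 0.04 in Ler replicates 1 to 4. The ttg1 arrays thus lay on both sides of the Ler arrays (95% interval of the change -0.55 to 0.15). RALFL33 (AT4G15800) and RALFL22 (AT3G05490), whose peptides are known to bind FERONIA, had log2 changes of -0.11 ± 0.09 and -0.05 ± 0.10. RALFL18 had a log2 change of -0.19 ± 0.09, RALFL24 of -0.17 ± 0.13 and RALFL32 of -0.11 ± 0.11.

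RALFL26 varied more within genotypes than most probe sets, with a pooled SD of 0.34, at percentile 95.2 of all probe sets. Its values ran from -0.38 to 0.63 in ttg1 and from -0.26 to 0.21 in Ler. RALFL25 lies next to RALFL26 on chromosome 3, with 0 protein-coding genes between them in the RefSeq gene order. The log2 changes were 0.05 ± 0.11 for RALFL25 and 0.17 ± 0.19 for RALFL26.

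In the defensin-like family 0 of 13 genes passed the test in limma. An unadjusted p under 0.05 was seen in 3, beside 23.0% of all probe sets. The median log2 change was -0.01, with 8 changes below 0 and 5 above. LCR24 (AT4G29285) had the widest log2 change of the family, -1.42 ± 0.42 (95% interval -2.34 to -0.49), with an adjusted p in limma of 0.076. Its values were -1.21, -0.43, 0.17 and -1.43 in ttg1 replicates 1 to 4, against 1.71, 0.91, 0.33 and -0.17 in Ler replicates 1 to 4. Each genotype thus spanned more than a 2-fold range, and ttg1 replicate 3 lay above Ler replicate 4. The pooled SD of 0.77 was at percentile 99.8 of all probe sets. LCR24 passed without ttg1 replicate 3 (log2 change -1.71, adjusted p in limma 0.0412) and without Ler replicate 4 (-1.70, 0.0425).

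The storage protein index is the mean value of 5 storage protein genes and a relative sign of seed filling. They were the only ones measured by name of 13 listed, without CRU1 to CRU3 and SESA1 to SESA5. This index ran against the values of LCR24 in the Ler arrays. The index was -0.36, -0.03, -0.24 and 1.0 in ttg1 replicates 1 to 4, against -0.53, 0.01, 0.22 and 1.18 in Ler replicates 1 to 4. The Ler arrays thus had the opposite order in LCR24, which the ttg1 arrays did not, since ttg1 replicate 1 had the lowest index and the second-lowest LCR24 value. The means of the index differed by less than the spread between arrays (0.09 ± 0.62 for ttg1, against 0.22 ± 0.72 for Ler, SD, n = 4 each; p = 0.714, exact permutation of the arrays, two-sided). Leaving out ttg1 replicate 4 took that difference, -0.13, to -0.43, and leaving out Ler replicate 4 took it to 0.19. Of the 5 genes, PAP85 and AT2G28490 spread most. PAP85 ran from -1.05 to 2.17 in ttg1 and from -1.02 to 2.28 in Ler. AT2G28490 ran from -0.61 to 1.66 in ttg1 and from -1.4 to 1.46 in Ler. AT4G36700 was lowest among the Ler arrays in replicate 4, where the index was highest, and had a log2 change of -0.37 (adjusted p in limma 0.129). AT2G18540 was highest among the Ler arrays in replicate 2, at 0.46 against 0.15 in replicate 4. In ttg1 it was highest in replicate 4 (0.52), as the index was. The genes of the index thus did not all follow it. With the index as a covariate the log2 change of LCR24 was -1.53 ± 0.27, with an adjusted p in limma of 0.0034. That fit called 15.7% of all probe sets, 8.92% as lower and 6.79% as higher in ttg1. Among the members it called 5 lower, with LCR24 and LCR80 beside the 3 genes named above, and 1 higher, PDF1B.

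LCR80 (AT5G38330) showed a small difference without overlap between the groups. Its values were -0.04, -0.22, -0.20 and -0.25 in ttg1 replicates 1 to 4, against 0.20, 0.20, 0.05 and 0.04 in Ler replicates 1 to 4. All 4 ttg1 arrays were below 0 and all 4 Ler arrays above it. Centring on the median forces these signs wherever the groups do not overlap. The log2 change was -0.30 ± 0.08 (95% interval -0.48 to -0.11), with an adjusted p in limma of 0.0696, and of 0.0242 with the index as a covariate. PDF2.1 (AT2G02120) had values of -0.49, -0.18, 0.04 and -0.53 in ttg1 replicates 1 to 4, against 0.01, 0.20, 0.09 and -0.01 in Ler replicates 1 to 4. Here ttg1 replicate 3 lay inside the Ler range, and the log2 change was -0.36 ± 0.13 (adjusted p in limma 0.126). Without ttg1 replicate 3 it was -0.47 (adjusted p 0.0435).

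PDF2.1 lies in a group of 4 defensin genes on chromosome 2, with LCR69, LCR68 and LCR72, with at most 3 protein-coding genes between any 2 of them in the RefSeq gene order. The other 3 had log2 changes of -0.06 ± 0.12 (LCR69), 0.02 ± 0.22 (LCR68) and 0.14 ± 0.12 (LCR72). The log2 change of PDF2.1 minus that of LCR69 was -0.30, minus that of LCR72 -0.51, and minus that of LCR68 -0.39. PDF2.1 thus had the lower change in each pair. For the pairs with LCR69 and LCR72 the exact two-sided permutation p over the arrays was 0.0571. It was 0.2 after Benjamini-Hochberg adjustment over the 7 neighbour pairs compared. For the pair with LCR68, which lies directly beside PDF2.1, the permutation p was 0.286, or 0.6 after adjustment. The smallest p that 4 against 4 arrays allow is 0.0286, which for a single pair among 7 becomes 0.2 after adjustment, so that no single pair could have passed. The pairs were chosen after the values were seen. LCR68 varied widely within both genotypes, from -0.40 to 0.19 in ttg1 and from -0.51 to 0.35 in Ler. In Ler its values of -0.51, -0.48, 0.33 and 0.35 in replicates 1 to 4 fell into a low and a high pair.

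Both genes of the PDF1.2 type, known for their response to fungal attack, had values close to 0 on all arrays. PDF1.2 (AT5G44420), a widely used marker of jasmonate and ethylene defence signalling, had a log2 change of -0.01 ± 0.10 (95% interval -0.23 to 0.20). PDF1.2b had a log2 change of 0.07 ± 0.08, and its 8 values spanned 0.20. By the manufacturer's naming its probe set may bind transcripts of related genes, so that the value cannot be assigned to PDF1.2b alone. LCR67 (AT1G75830), also named PDF1.1, had a log2 change of -0.01 ± 0.09. The remaining members were PDF1.4 at -0.19 ± 0.12, LCR66 at -0.09 ± 0.08, LCR59 at 0.04 ± 0.09 and PDF2.5 at 0.12 ± 0.09.

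None of the 6 CLE genes passed the test in limma, with a smallest adjusted p of 0.143 and 3 genes at an unadjusted p under 0.05. All 6 log2 changes were above 0, from 0.05 to 0.39, with a median of 0.20 beside 0.03 over all probe sets. Of all 22746 probe sets, 12646 had a change above 0, and 23.0% had an unadjusted p under 0.05. CLE41 (AT3G24770) and CLE44 (AT4G13195) encode the peptide TDIF, which maintains vascular stem cells. CLE41 had values of 0.56, -0.07, -0.01 and 0.44 in ttg1 replicates 1 to 4, against -0.40, -0.28, 0.04 and 0.01 in Ler replicates 1 to 4. Only ttg1 replicates 1 and 4 lay above all Ler arrays. The log2 change was 0.39 ± 0.16 for CLE41 (95% interval 0.04 to 0.74, adjusted p in limma 0.177) and 0.16 ± 0.12 for CLE44.

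CLE40 (AT5G12990), known for its part in the root stem cell niche, had values of 0.31, 0.02, 0.05 and 0.30 in ttg1 replicates 1 to 4, against -0.09, -0.08, -0.12 and -0.02 in Ler replicates 1 to 4. The groups did not overlap, with ttg1 replicates 2 and 3 just above the Ler arrays. Its log2 change was 0.25 ± 0.09 (95% interval 0.04 to 0.45, adjusted p in limma 0.143). CLE27 had values of 0.16, 0.14, -0.01 and 0.04 in ttg1 replicates 1 to 4, against -0.56, -0.22, 0.01 and -0.06 in Ler replicates 1 to 4. Ler replicates 1 and 2 were the lowest arrays, and the log2 change was 0.29 ± 0.12 (adjusted p in limma 0.185). CLE26, known from root phloem, and CLE21 had log2 changes of 0.06 ± 0.08 and 0.05 ± 0.09.

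The highest ttg1 value of all 6 CLE genes was in ttg1 replicate 1 (4 genes) or 4 (2 genes). Over all probe sets the highest ttg1 value was in replicate 1 for 25.3% and in replicate 4 for 34.7%. These arrays also had the lowest weights among the ttg1 arrays in limma's array weighting, which measures how far an array departs from its group over all probe sets. The weights were 0.553, 0.968, 1.77 and 0.348 in ttg1 replicates 1 to 4, against 0.814, 1.84, 1.66 and 1.23 in Ler replicates 1 to 4. Leaving out ttg1 replicates 1 and 4, which held the highest ttg1 values, by itself favours smaller changes in the CLE genes. With both left out, the median log2 change of the CLE genes was 0.12. Of the 6 genes, 5 remained above 0, while CLE21 was at -0.04. In that fit the log2 change was 0.12 for CLE41, 0.11 for CLE40 and 0.02 for CLE26. For CLE27 it was 0.28 and for CLE44 0.13, close to the 0.29 and 0.16 over all arrays.

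Several genes with lower values in ttg1 ranked the ttg1 arrays alike. In AT2G14900, RALFL28, RALFL31, LCR24 and PDF2.1, replicate 4 was lowest, followed by 1, 2 and 3. This order was seen in 5 of the 31 secreted peptide genes, in 6.39% of all probe sets and in 15.6% of the 900 probe sets called lower. It was noticed after the values were seen, and it is also the order of the array weights from lowest to highest. With the weights in the fit the log2 change was -3.58 for AT2G14900, -0.90 for RALFL28, -0.46 for RALFL31, -0.96 for LCR24 and -0.25 for PDF2.1. The 3 called genes passed in that fit (adjusted p in limma 7.13e-06, 0.0345 and 0.0194) and were joined by LCR80 (0.0367). That fit called 8.52% of all probe sets, 5.06% as lower and 3.46% as higher in ttg1. Without ttg1 replicates 1 and 4 the log2 change of AT2G14900 was -3.41 (adjusted p 7.69e-05). RALFL28 at -0.81 (0.0713) and RALFL31 at -0.41 (0.0871) did not pass there. Replicates 4 and 1 were the lowest ttg1 arrays in these genes, so smaller changes without them followed from the choice of arrays.

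**Figure D3:**
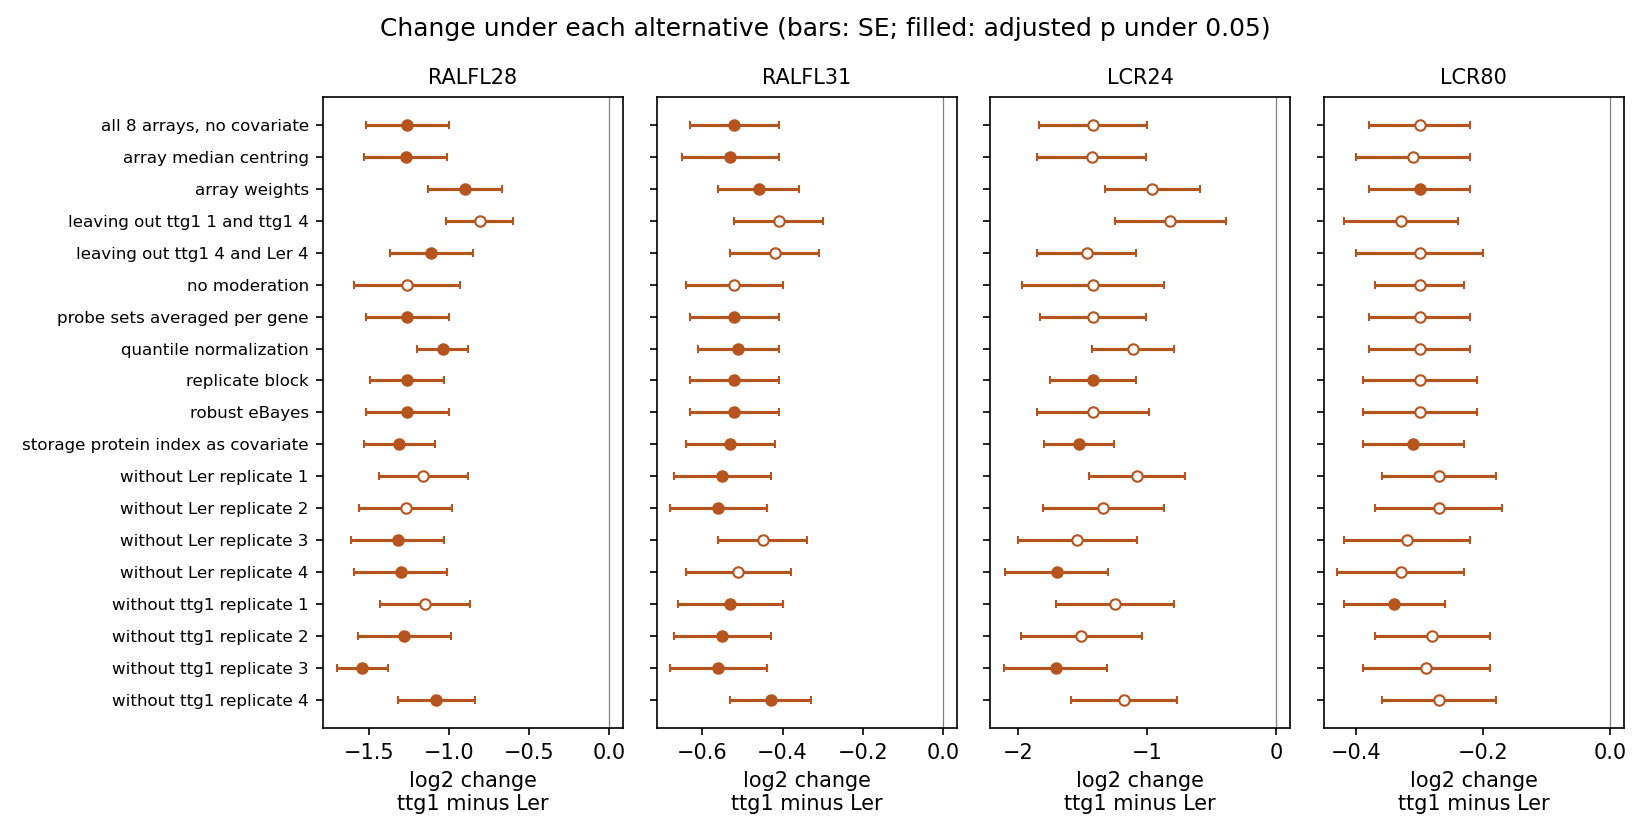
Log2 change with its SE for RALFL28, RALFL31, LCR24 and LCR80 in the fit of all 8 arrays (top row) and under each alternative; filled points have an adjusted p in limma (in an ordinary linear model for the row without moderation) under 0.05. All changes stay below 0, and each gene passes the threshold under some settings and not under others.

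Within-genotype spread set several members apart. The pooled SD lay above the 95th percentile of all probe sets for 5 members, RALFL28, RALFL26, LCR24, LCR68 and AT2G14900. At the other end 16 of the 33 members spanned under 0.5 over all 8 arrays. The median span was 0.50 among the members and 0.51 over all probe sets. Without levels it cannot be told which of these genes were detected.

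The deformylase gene PDF1B (AT5G14660) had values of 0.23, 0.11, -0.09 and 0.72 in ttg1 replicates 1 to 4, against -0.41, -0.47, 0.09 and -0.09 in Ler replicates 1 to 4. The groups overlapped, since ttg1 replicate 3 was close to Ler replicate 4 and below Ler replicate 3. Its log2 change was 0.46 ± 0.18, with an adjusted p in limma of 0.151, and of 0.025 once the storage protein index was a covariate. PDF1A was at 0.00 ± 0.08.

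Receptors, partners and related genes were taken from 6 lists of 98 genes, of which 26 were measured by name. None of the 26 rose and 3 fell, THE1, SLY1 and THI2.1, where 1.76% of all probe sets were called higher and 3.96% lower. With so few genes in each list, the counts below are read only as descriptions beside these shares. In the RALF receptor list 1 of 13 measured genes fell. THE1 (AT5G54380), the THESEUS1 receptor kinase that monitors the cell wall, had values of -0.30, -0.30, -0.26 and -0.87 in ttg1 replicates 1 to 4, against 0.55, 0.42, 0.27 and 0.26 in Ler replicates 1 to 4. The groups did not overlap, and ttg1 replicate 4 lay far below the other ttg1 arrays. THE1 was 1.75-fold lower (log2 change -0.81 ± 0.14, adjusted p in limma 0.00701), and it passed in all 8 fits that left out 1 array, but not without moderation (0.0728). Its known relative FER, the FERONIA receptor, had a log2 change of -0.19 ± 0.16 and did not pass. LRX4, a wall protein that binds RALF peptides, had -0.23 ± 0.10 (adjusted p in limma 0.197).

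Of 25 genes in the gibberellin list 4 were measured by name, and 1 of these fell. The 4 were SLY1, GID1A, GID1B and GID1C, with no gene of gibberellin synthesis among them. SLY1 (AT4G24210), the F-box protein that marks DELLA repressors for breakdown in gibberellin signalling, had values of -0.36, -0.26, -0.11 and -0.40 in ttg1 replicates 1 to 4, against 0.19, 0.30, 0.38 and 0.11 in Ler replicates 1 to 4. All ttg1 arrays were below all Ler arrays. It was 1.44-fold lower (log2 change -0.53 ± 0.09, adjusted p in limma 0.00822). Without ttg1 replicates 1 and 4, which held its lowest values, the log2 change was -0.43 and the adjusted p 0.0504. GID1A, a gibberellin receptor, had a log2 change of -0.43 ± 0.16 (adjusted p in limma 0.149). It passed once the storage protein index was a covariate (adjusted p in limma 0.0248) and with the replicate number as a block (0.0429). Its relatives GID1B and GID1C had log2 changes of 0.07 ± 0.10 and -0.03 ± 0.09.

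Thionins are small antimicrobial proteins outside the families chosen here, and 2 of 15 genes on the list of other secreted peptides were measured, both thionins. THI2.1 (AT1G72260), known as a jasmonate-responsive thionin, had values of -0.61, -0.51, -0.54 and -1.36 in ttg1 replicates 1 to 4, against 0.92, 0.54, 0.64 and 0.51 in Ler replicates 1 to 4, without overlap. It was 2.66-fold lower (log2 change -1.41 ± 0.18, adjusted p in limma 0.00106) and passed under all 18 alternatives tried. THI2.2 had a log2 change of 0.29 ± 0.16 and did not pass.

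No gene passed in the lists of CLE receptors and partners (4 of 14 measured) and of seed peptide signalling (3 of 11 measured), and the EPFL receptor list had no gene measured by name. At an unadjusted p under 0.05 in limma, TWS1 and KRS of the seed list would pass, and no gene of the CLE list. Over all probe sets 23.0% were under that level. PXL1, a receptor kinase related to the TDIF receptor, and CLV3, the CLE peptide of the shoot stem cell niche, had log2 changes of 0.20 ± 0.11 and 0.16 ± 0.09. TWS1 (AT5G01075) encodes an embryo peptide that reports gaps in the embryo cuticle to the receptor kinase GSO1. TWS1 had values of -0.02, 0.13, 0.09 and 1.08 in ttg1 replicates 1 to 4, against -1.16, -0.65, -0.17 and 0.02 in Ler replicates 1 to 4. Its Ler arrays had the same order as in the storage protein index, and in both genotypes replicate 4 was highest in each. The log2 change was 0.81 ± 0.28 for TWS1 (adjusted p in limma 0.126), 0.45 ± 0.20 for GSO1 (0.222) and -0.51 ± 0.21 for KRS, a peptide gene of the embryo sheath (0.182). With the index as a covariate all 3 passed, with log2 changes of 0.91 (adjusted p in limma 0.000455), 0.51 (0.015) and -0.56 (0.0357), in the fit that called 15.7% of all probe sets.

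**Figure D4:**
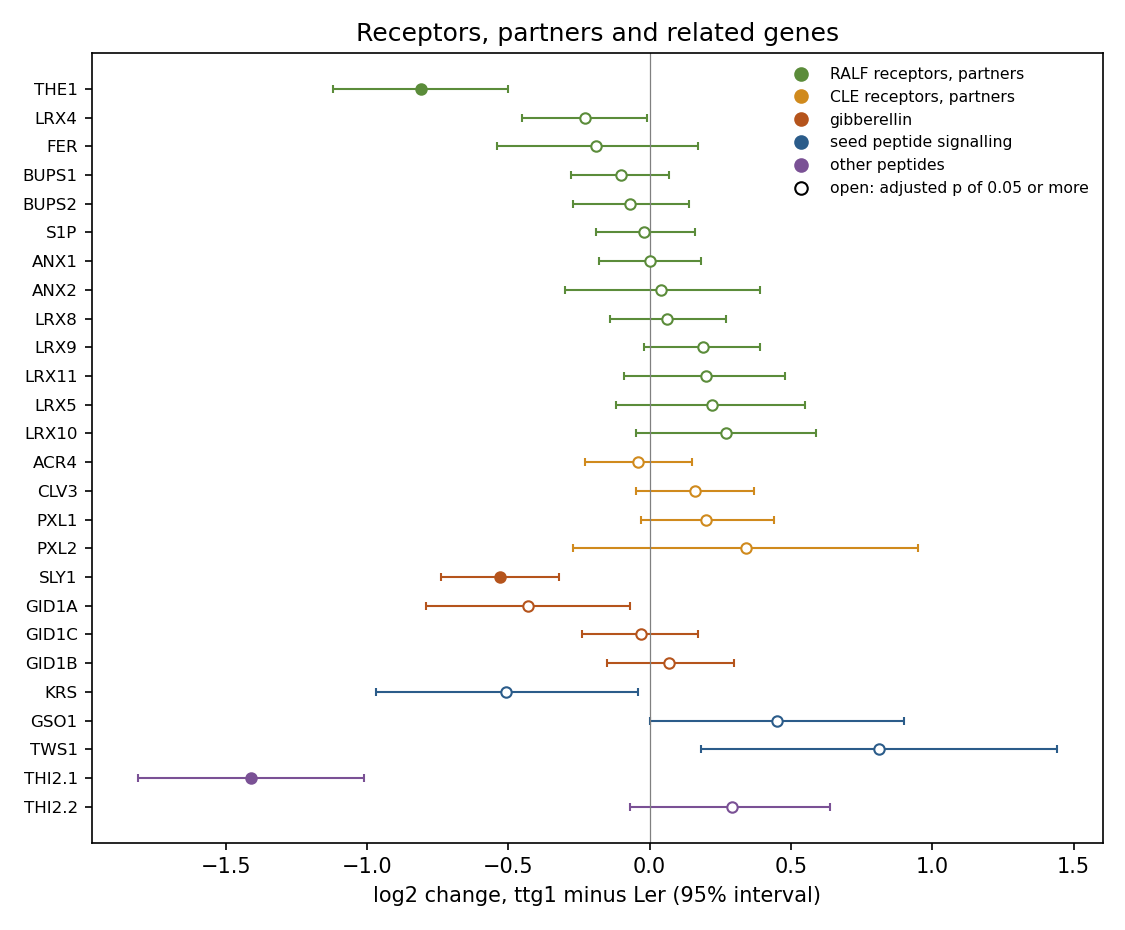
Log2 change, ttg1 minus Ler, with its 95% interval for the 26 measured genes of the receptor, partner and related lists, coloured by list and filled where the adjusted p in limma was under 0.05. THE1, SLY1 and THI2.1 lie below 0 and are filled, and no gene above 0 is.

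Markers of other seed parts were compared in the same fit. None of the 7 embryo markers listed was measured by name. DFR, BAN and PRX36, the 3 measured of 11 seed coat markers, all fell in ttg1, and their mean value lay between -2.66 and -2.46 in ttg1 and between 2.25 and 2.56 in Ler. That mean was carried by the pigment pathway genes BAN and DFR, which TTG1 complexes are known to control, with log2 changes of -6.43 and -6.99. PRX36, a peroxidase of the mucilage cells, had a log2 change of -1.39. None of the 3 measured endosperm markers and neither of the 2 measured silique wall markers passed. The mean of the endosperm markers lay between -0.07 and 0.25 in ttg1 and between -0.05 and 0.01 in Ler. For the silique wall the range was -0.30 to 0.20 in ttg1 and -0.23 to 0.10 in Ler, a mean of 2 genes with opposite signs. YAB3 had a log2 change of 0.67 (adjusted p in limma 0.116, unadjusted 0.0136) with no overlap of the groups, and ALC one of -0.47 (adjusted p in limma 0.215, unadjusted 0.049). The part of tissue composition in the changes of AT2G14900, RALFL28 and RALFL31 was not tested.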

How the data were processed

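Total RNA was labelled with biotin and hybridised to 8 ATH1 arrays, and the titles of the samples gave group and replicate number. The authors deposited log2 values made with RMA, per the submitters' processing notes, with no version given. Every probe set's median across the deposited log2 columns is 0, so they were centred by probe set, a step seen only in the values. Base 2 was assumed from RMA.

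Of 22810 probe sets, 64 Affymetrix controls were left out. A change was fitted on the 8 arrays for 22746 probe sets by lmFit and eBayes without covariates, using limma 3.58.1 under R 4.3.3, with a Benjamini-Hochberg threshold of 0.05. Errors of log2 changes are moderated standard errors. Members were named from the platform annotation, and all 33 were matched to RefSeq genes of assembly TAIR10.1 by gene ID or symbol. For a single value per array, all 70 assignments were permuted (exact, two-sided), and the smallest possible p is 0.0286. On simulated data with 22746 probe sets, the limma step recovered 30 of 50 changes of 0.5 and 49 of 50 of 1 on the log2 scale. All 50 changes of 2 and all 50 of 4 were recovered, and 21 unchanged probe sets were called. The simulated noise was independent between probe sets and alike for every array. These rates may therefore not hold for the real arrays, whose weights differ.

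The members and lists were chosen with earlier results of these data known. Named genes are all called members, the 2 widest changes and the largest SD of each family, and in each list the called genes or the 2 with the smallest adjusted p. Other genes were named after their values were seen, or, for FER and GSO1, as known receptors. No label says how the replicates were grown, so the spread behind each p-value may in part be technical. Alternatives were quantile normalization, the replicate number as a block, array median centring, robust eBayes, array weights, no moderation, a threshold of 0.01, the storage protein index as a covariate, values averaged per gene, and each array left out. Leaving out 2 arrays together was added after seeing the data. A filter on dim probe sets could not be made from centred values.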

Additional observations from a re-analysis of the deposited data

Results flagged for a closer look

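Sets of 4 values were examined for members, named list genes and marker means. Of 98 sets, 9 held 1 array far from the other 3 (gap over range above Dixon's 95% critical value). That value gives about 1 in 20 for independent normal values. The share over all probe sets was not computed, so the count is not read as a trait of these genes. Among the members, ttg1 replicate 4 stood at -0.54 in RALFL24, with the other ttg1 arrays between -0.01 and 0.05, and at 0.18 in CLE26, with the others between 0.00 and 0.02. Ler replicate 4 stood at 0.12 in CLE26, with the other Ler arrays between -0.06 and -0.04. In RALFL25, ttg1 replicate 3 was at -0.19 and the others lay between 0.08 and 0.12. LCR72 was at -0.27 in Ler replicate 1, the others lying between -0.02 and 0.02.

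Among the list genes it was ttg1 replicate 4 in all 4 cases, with values of -0.58 in FER, -0.87 in THE1, 1.08 in TWS1 and -1.36 in THI2.1. The other ttg1 arrays lay between -0.01 and 0.06 in FER, -0.30 and -0.26 in THE1, -0.02 and 0.13 in TWS1, and -0.61 and -0.51 in THI2.1. This array also had the lowest weight, 0.348. Without it THE1 had a log2 change of -0.66 and THI2.1 of -1.21, and both passed in limma.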

How the results depend on the processing

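AT2G14900 and THI2.1 passed under every alternative tried. The count of members lower in ttg1, 3 in the fit of all arrays, was 1 with no moderation, 1 at a threshold of 0.01 and 1 without ttg1 replicates 1 and 4, and 5 when the storage protein index was a covariate, where 1 member (PDF1B) was higher. Leaving out 1 array gave 2 to 5 lower members. Without moderation the adjusted p was 0.13 for RALFL28 and 0.0982 for RALFL31, and without both replicates 4 RALFL31 was at 0.0648. Over all probe sets 1300 were called. That count was 577 with no moderation, 526 at 0.01, 3574 with the index and 1970 with the replicate number as a block, and leaving out 1 array gave between 673 and 1184. With the block RALFL28, RALFL31 and AT2G14900 passed and LCR24 joined them (adjusted p in limma 0.0303). Of the same-numbered arrays only both replicates 4 deviated together (correlations 0.0769, 0.0318, -0.313 and 0.482 for numbers 1 to 4). Arrays of unlike number ranged as widely, from -0.579 (ttg1 replicate 4 with Ler replicate 1) to 0.448 (ttg1 replicate 2 with Ler replicate 1). These values do not settle whether equal numbers mark pairs. The fit of all arrays took them as unpaired, and the block fit gives the result if they are pairs. The RALF receptor list had 0 called genes with no moderation. The gibberellin list had 0 without ttg1 replicates 1 and 4, and 2 with the block and with the index. Seed peptide signalling had 2 with the block and 3 with the index.

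Members with changes near 0 changed sign without passing. PDF1A was at -0.01 with array median centring, -0.02 with array weights, -0.03 with quantile normalization, -0.01 without ttg1 replicates 1 and 4 and -0.03 without both replicates 4. Without ttg1 replicates 1 and 4, RALFL25 was at -0.03, LCR69 at 0.10, LCR59 at -0.02 and CLE21 at -0.04. LCR69 was at 0.00 with array weights and RALFL25 at -0.03 without both replicates 4. Leaving out 1 array, the log2 change ran from -0.12 to 0.17 in LCR68, -0.12 to 0.02 in LCR69, -0.05 to 0.05 in LCR67, -0.06 to 0.05 in PDF1.2, -0.11 to 0.02 in RALFL22, -0.02 to 0.09 in LCR59, -0.01 to 0.09 in CLE21 and -0.03 to 0.04 in PDF1A. The causes were not tested. Signal over background is unknown, since centring removed the levels.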
